A study of Homo sapiens with 4 samples.

Results

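Angiotensin receptor and peptidase genes are described here in A549, an established cell line from a human lung adenocarcinoma. The set holds 7 of the 26255 gene symbols in the deposited table: the precursor gene AGT, the receptor gene AGTR1 and the peptidase genes ACE, MME, ENPEP, ANPEP and LNPEP. It was chosen on measured values, because AGTR1 was lower in the acinar tumor than in the solid tumor and lower in the mix culture than in the single culture. The differences of AGTR1 in those pairs are therefore given as a description and support nothing.

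The study sequenced 4 libraries with 1 library per group, so nothing could be checked against replicates and p-values are absent. Its title ties TGF-β signalling switched on by fibroblasts to the histology of this cancer. The acinar tumor and the solid tumor are areas of A549 xenografts in immunodeficient mice, cut out by laser microdissection and named for their histology, gland-like in the first and sheet-like in the second. The mix culture and the single culture are GFP-labelled A549 cells sorted from 3D colonies; the first was read as the culture with cancer-associated fibroblasts (CAFs) and the second as the culture without them. No drug, allele or time point is named for any library, and the sources used here do not give the mouse strain, the ages, the source of the CAFs or how many tumors or cultures each library stands for. All 9 fixed markers of A549 and epithelial cells were at 1 scaled count or more in every library.

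Angiotensinogen, the product of AGT, is a plasma protein made mainly by the liver. The peptide angiotensin I is cut from it, ACE trims that peptide to angiotensin II, and the type 1 receptor AGTR1, a Gq-coupled receptor, carries most of the known vascular effects of angiotensin II. Surface aminopeptidases then shorten the peptide from its front end, and ACE in the lung is best known from the endothelium.

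The stretch of AGT that encodes angiotensin I is shown because every peptide that the receptor and these peptidases handle in this system starts from it. It lies at chr1:230710722-230710751 (GRCh38, minus strand) in exon 2, in codons 34 to 43 of 485, and was read from the GENCODE 29 transcript. The capitals mark the codons kept in angiotensin II. The second sequence comes from AGTR1, at chr3:148741390-148741434 on the plus strand in exon 3, codons 119 to 133 of 359. Its capitals mark the aspartate, arginine and tyrosine codons at the inner end of a membrane helix, a motif that receptors of this class use in G protein coupling.
AGT angiotensin I: GACCGGGTGTACATACACCCCTTCcacctc
AGTR1 motif: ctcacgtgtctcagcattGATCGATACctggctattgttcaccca

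The 5 peptidases are zinc enzymes that share a motif of histidine, glutamate, any residue, any residue and histidine, which holds the metal. The codons of this motif are in capitals below, and the stretches show how far the members resemble one another there. ACE has a pair of such sites because it has a pair of catalytic domains, at chr17:63482500-63482544 in exon 8 and chr17:63493470-63493514 in exon 20 (plus strand). The MME site lies at chr3:155166976-155167020 in exon 18 (plus strand). The sites of the 3 aminopeptidases each cross a splice junction, at chr4:110509775-110510256 in ENPEP (exons 5 and 6, plus strand), chr15:89803991-89804285 in ANPEP (exons 6 and 7, minus strand) and chr5:96993939-96996401 in LNPEP (exons 6 and 7, plus strand). All are GRCh38 positions from GENCODE 29, and only the exon bases are printed.
ACE first site: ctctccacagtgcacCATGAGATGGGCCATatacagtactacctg
ACE second site: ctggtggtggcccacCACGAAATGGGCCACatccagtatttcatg
MME site: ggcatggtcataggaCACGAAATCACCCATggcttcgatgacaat
ENPEP site: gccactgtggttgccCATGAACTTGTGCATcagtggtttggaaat
ANPEP site: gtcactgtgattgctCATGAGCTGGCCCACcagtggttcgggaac
LNPEP site: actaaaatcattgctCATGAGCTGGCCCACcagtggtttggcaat
Over these 45 bases ANPEP and LNPEP were identical at 35, including all 15 of the motif. ENPEP was identical to ANPEP at 34, with 10 of the 15 motif bases, and MME to ANPEP at 21, with 9 of the 15.

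Levels are scaled counts, which are the deposited normalised fragment counts divided by the constant 8.94 in all libraries, for easier reading. They are not divided by gene length. All 28 values of the 7 genes were whole fragments, within 0.05 of a fragment, and 95% intervals come from those fragments (exact Poisson for a level, exact conditional binomial for a fold). The intervals cover counting error only and leave out variation between samples. Several fragments may stem from 1 molecule, in which case the intervals are too narrow. The estimated depth was 6630000 fragments in the acinar tumor, 7270000 in the solid tumor, 12180000 in the mix culture and 10970000 in the single culture.

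AGTR1, the receptor gene, had a scaled count of 3.72 in the acinar tumor (2.38 to 5.54), against 20.7 in the solid tumor (17.5 to 24.3). These were 24 and 148 fragments, and the ratio was 5.56-fold lower in the acinar tumor (3.60 to 8.96). It was at 13.9 scaled counts in the mix culture (11.9 to 16.2), against 54.9 in the single culture (50.7 to 59.4). With 173 and 618 fragments the ratio was 3.94-fold lower in the mix culture (3.33 to 4.69). In order of level the libraries were single culture, solid tumor, mix culture and acinar tumor, and each differed from the next beyond counting error. In bulk libraries such as these, fewer cells with a transcript and less transcript per cell cannot be told apart.

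AGT, the precursor gene, gave at most 58 fragments in any library. It had a scaled count of 1.24 in the acinar tumor (0.536 to 2.44), against 3.08 in the solid tumor (1.93 to 4.66), from 8 and 22 fragments. It was at 1.21 in the mix culture (0.676 to 1.99), against 5.15 in the single culture (3.91 to 6.66), from 15 and 58 fragments. AGT was thus 2.48-fold lower in the acinar tumor (1.06 to 6.44) and 4.27-fold lower in the mix culture (2.39 to 8.11). Its level was highest in the single culture and next in the solid tumor, while the acinar tumor and the mix culture did not differ beyond counting error.

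ACE, which makes angiotensin II, had a scaled count of 1.55 in the acinar tumor and 2.66 in the solid tumor, from 10 and 19 fragments. The interval of that ratio included no difference (1.71-fold lower, 0.758 to 4.13). In the mix culture it was at 1.29 scaled counts, against 3.11 in the single culture, from 16 and 35 fragments, or 2.41-fold lower (1.30 to 4.67). No library differed from the next in order of level beyond counting error for this gene, although the mix and single cultures, at the ends of the order, did. In GENCODE 29, 1997 exon bases of ACE are shared with another annotated coding gene on the same strand. The symbol of that gene is not in the deposited table, so how fragments from the shared bases were assigned is not known.

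**Figure D1:**
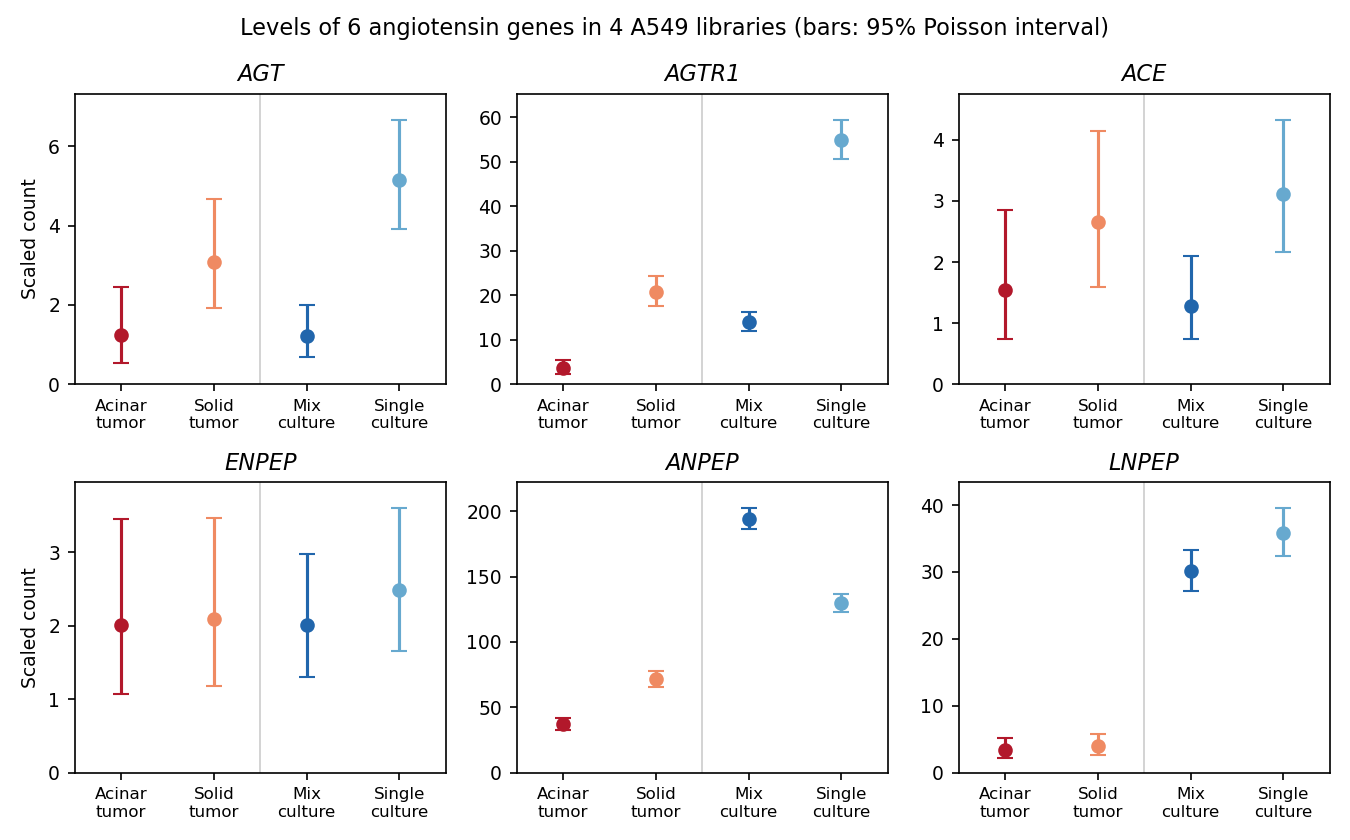
Levels of 6 of the 7 genes in scaled counts (vertical axis, starting at 0 with its own range in each panel) in the acinar tumor, solid tumor, mix culture and single culture, 1 library each, with 95% Poisson intervals as bars. AGTR1 is at 3.72 in the acinar and 20.7 in the solid tumor and at 13.9 in the mix and 54.9 in the single culture, LNPEP is low in both tumors, and MME, at 0 throughout, is not drawn.

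ENPEP encodes aminopeptidase A, which takes the first residue off angiotensin II. It had a scaled count of 2.02 in the acinar tumor, 2.10 in the solid tumor, 2.01 in the mix culture and 2.49 in the single culture, from 13 to 28 fragments. No library differed from its neighbour in order of level beyond counting error. The ratio was 1.04-fold lower in the acinar tumor (0.462 to 2.38) and 1.24-fold lower in the mix culture (0.695 to 2.21). At this depth a 2-fold difference in either direction was within the counting error in the tumors. In the cultures a 2-fold lower level in the mix culture was within it, and a 2-fold higher level was not.

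ANPEP encodes aminopeptidase N, also known as CD13, which takes off the residue that follows. It had a scaled count of 37.1 in the acinar tumor (32.5 to 42.1), against 71.3 in the solid tumor (65.3 to 77.8). That was 1.92-fold lower in the acinar tumor (1.65 to 2.25). In the cultures the order was the other way: ANPEP was at 194 scaled counts in the mix culture (187 to 202), against 130 in the single culture (123 to 136), or 1.50-fold higher in the mix culture (1.40 to 1.60). ANPEP was the only one of the 6 detected genes with a ratio above 1 in the mix culture.

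LNPEP encodes the insulin-regulated aminopeptidase, which binds a short angiotensin peptide and cleaves oxytocin. It had a scaled count of 3.41 in the acinar tumor (2.14 to 5.16) and 4.06 in the solid tumor (2.72 to 5.82), from 22 and 29 fragments. In the mix culture it was at 30.1 (27.1 to 33.3), against 35.8 in the single culture (32.4 to 39.5), from 374 and 403 fragments. The tumors did not differ beyond counting error (1.19-fold lower in the acinar tumor, 0.660 to 2.17), and the mix culture was 1.19-fold lower than the single culture (1.03 to 1.37).

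MME encodes neprilysin, also known as CD10, which cuts angiotensin I and many other small peptides. It had 0 fragments in all 4 libraries. A count of 0 was taken to allow up to 3 fragments, a one-sided limit that lies below the upper end of the two-sided intervals used above. That is 0.465 scaled counts in the acinar tumor, 0.420 in the solid tumor, 0.242 in the mix culture and 0.267 in the single culture. MME was therefore not detected, and no fold is given.

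**Figure D2:**
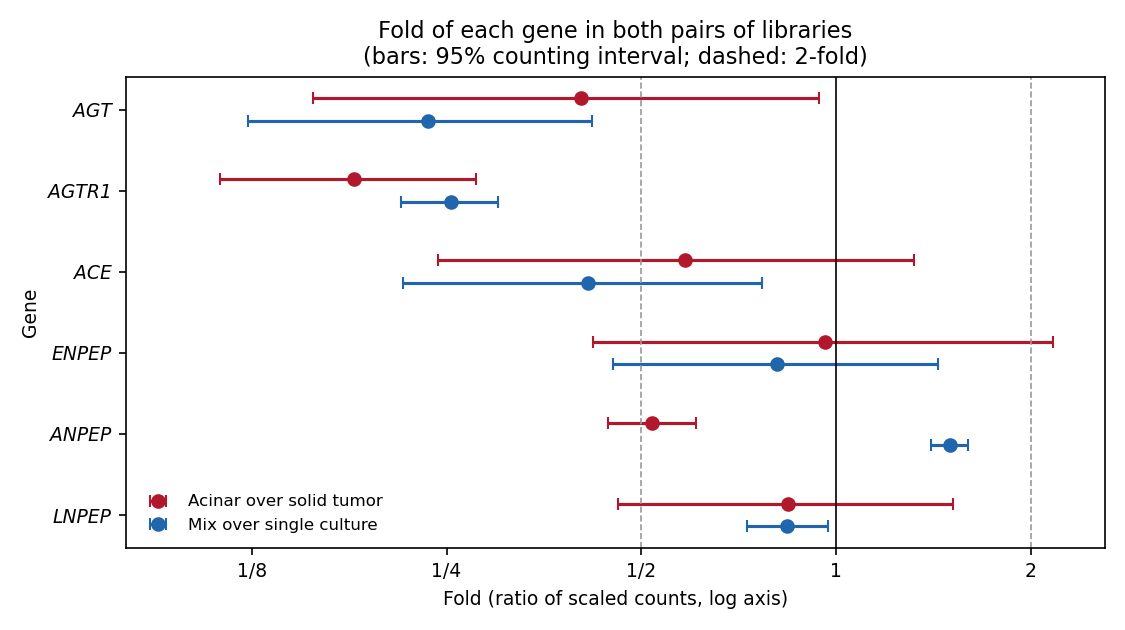
Fold of each detected gene (horizontal log axis, ratio of scaled counts) in the acinar over the solid tumor and in the mix over the single culture, 1 library each, with 95% counting intervals as bars, a line at 1 and dashed lines at 2-fold. AGTR1 and AGT lie below 1 in both pairs, and ANPEP is at 0.520 in the tumors and 1.50 in the cultures.

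Counts of genes used the log2 ratio of (scaled count + 1), a scale that understates differences of low genes, over genes that reached 1 scaled count in either library of a pair. MME did not pass this minimum, and the other 6 genes passed in every pair. In the acinar over solid pair, 1 of the 6, AGTR1 (log2 ratio -2.20), was lower by 2-fold or more and 0 were higher by that much, where 2.55% of 13979 genes were lower and 1.98% higher. In the mix over single pair, 2 of the 6, AGTR1 (-1.91) and AGT (-1.48), were lower by 2-fold or more and 0 were higher, where 1.74% of 13485 genes were lower and 0.682% higher. The members next outside the 2-fold limit were ANPEP in the tumors (-0.93) and ACE in the cultures (-0.85). The median of the 6 was -0.69 in the tumors and -0.54 in the cultures, against 0.0062 and 0.013 over all genes. AGTR1 was one of 38 genes past 2-fold lower in both pairs, 0.295% of the 12903 genes measured in both, and had the fourth lowest sum of the log2 ratios among them. Because the set was chosen on these pairs, nothing is read from the counts.

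**Figure D3:**
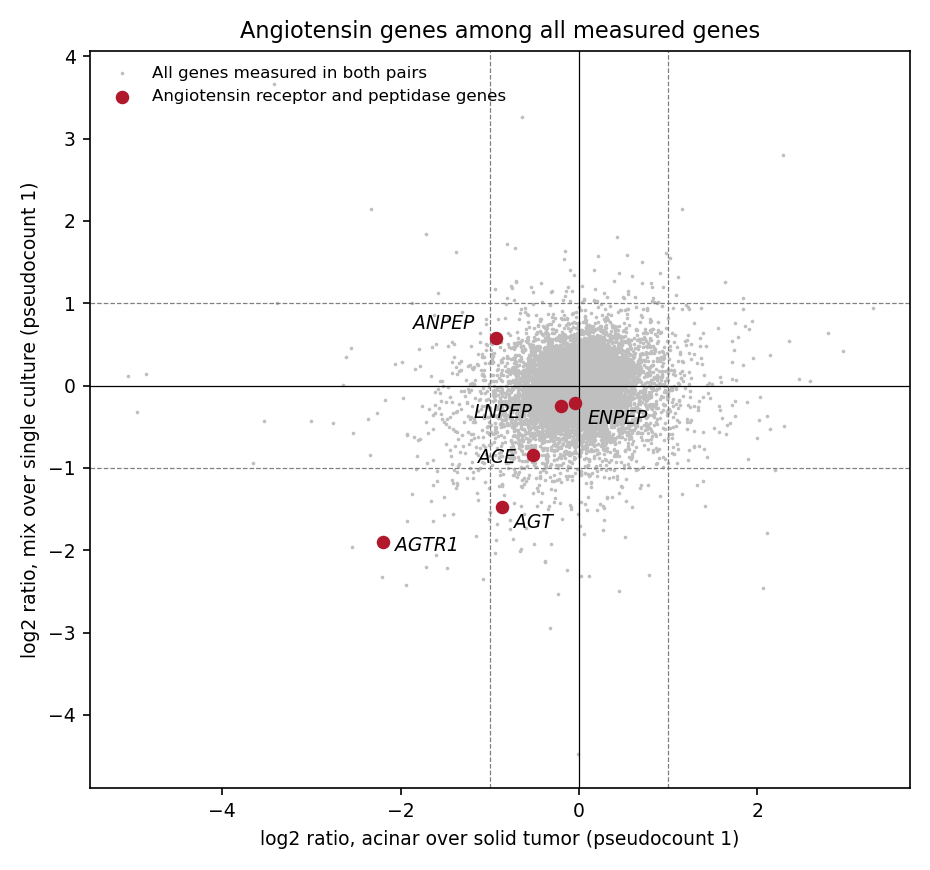
Log2 ratio of the acinar over the solid tumor (horizontal) against that of the mix over the single culture (vertical) for all genes measured in both pairs, with the 6 detected angiotensin genes in red and dashed lines at 2-fold. AGTR1 lies at -2.20 and -1.91, apart from the main body of genes, while ENPEP and LNPEP lie within it.

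Between tumors and cultures, LNPEP had the largest folds of the 6 detected genes. It was 8.83-fold lower in the solid tumor than in the single culture (6.06 to 13.4) and 8.83-fold lower in the acinar tumor than in the mix culture (5.74 to 14.3). AGTR1 was 2.65-fold (2.21 to 3.20) and 3.74-fold lower (2.43 to 6.0) in the same pairs, and ANPEP 1.82-fold (1.64 to 2.01) and 5.24-fold lower (4.59 to 6.01). AGT was 1.68-fold lower in the solid tumor than in the single culture (1.01 to 2.87) and did not differ beyond counting error between the acinar tumor and the mix culture. Of the 6 genes, 2 (AGTR1 and LNPEP) were past 2-fold lower in the solid tumor, where 13.2% of 14237 genes were lower and 15.8% higher, and 3 (those and ANPEP) in the acinar tumor, where 14.3% of 14082 genes were lower and 16.7% higher. None of the 6 was past 2-fold higher in either. These ratios use the same libraries as the pairs above. The tumors were microdissected and the cultures sorted, so setting and sampling cannot be told apart.

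Per kilobase of merged exon (GENCODE 29 coding transcripts, which may not be the annotation behind the counts), ANPEP had the highest level of the 7 genes in every library and AGTR1 the second. ANPEP was at 10.1 scaled counts per kilobase in the acinar tumor, 19.4 in the solid tumor, 52.8 in the mix culture and 35.2 in the single culture. AGTR1 was at 1.18 in the acinar tumor, 6.54 in the solid tumor, 4.40 in the mix culture and 17.4 in the single culture. The share of AGTR1 in the summed level per kilobase of the 7 genes was 9.31% in the acinar tumor, 23.0% in the solid tumor, 7.27% in the mix culture and 29.7% in the single culture. With the length of 1 coding transcript per gene instead, these shares were 12.1%, 28.6%, 9.51% and 36.1%. They hold the AGTR1 differences on which the set was chosen and add no support. LNPEP, spread over 13.1 kilobases of exon, ranked 3 in both cultures and 5 or 6 in the tumors, at 0.261 per kilobase in the acinar tumor and 0.310 in the solid tumor.

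Among 19 other renin-angiotensin genes in the table, 10 were measured in each pair and 0 were past 2-fold in either direction. In the acinar over solid pair 6 were above 0 and 4 below, with a median of 0.070. In the mix over single pair 4 were above and 6 below, with a median of -0.0031. ATP6AP2, which encodes an accessory protein of a proton pump, had a scaled count of 178 in the acinar tumor and 170 in the solid tumor, and of 212 in the mix culture and 234 in the single culture. CTSD encodes cathepsin D, a lysosomal protease that can release angiotensin I. It was at 903 and 907 in the acinar and solid tumors and at 1417 in the mix culture, against 2131 in the single culture (1.50-fold lower, with fractional fragments and so no interval). CTSA, the carboxypeptidase cathepsin A gene, was at 193 in the acinar and 215 in the solid tumor, and at 162 in the mix and 201 in the single culture. RNPEP, aminopeptidase B, was at 96.6 in both tumors, and at 165 in the mix and 166 in the single culture.

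AGTRAP, whose product binds the type 1 receptor and promotes its internalisation, was named after its values were seen. Within each pair it was higher in the library with the lower AGTR1. AGTRAP had a scaled count of 124.8 in the acinar tumor, against 94.0 in the solid tumor, and of 60.7 in the mix culture, against 44.7 in the single culture. That was 1.33-fold higher in the acinar tumor (1.20 to 1.47) and 1.36-fold higher in the mix culture (1.21 to 1.52). Across the pairs the opposite order did not hold, as AGTRAP and AGTR1 were both higher in the solid tumor than in the mix culture. NLN of the same list was also higher in the acinar tumor (1.16-fold, 1.04 to 1.31) and in the mix culture (1.10-fold, 1.03 to 1.18). The genes of other angiotensin receptors, AGTR2 and MAS1, had 0 fragments in every library, as did the protease genes CTSG, CMA1 and CPA3.

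**Figure D4:**
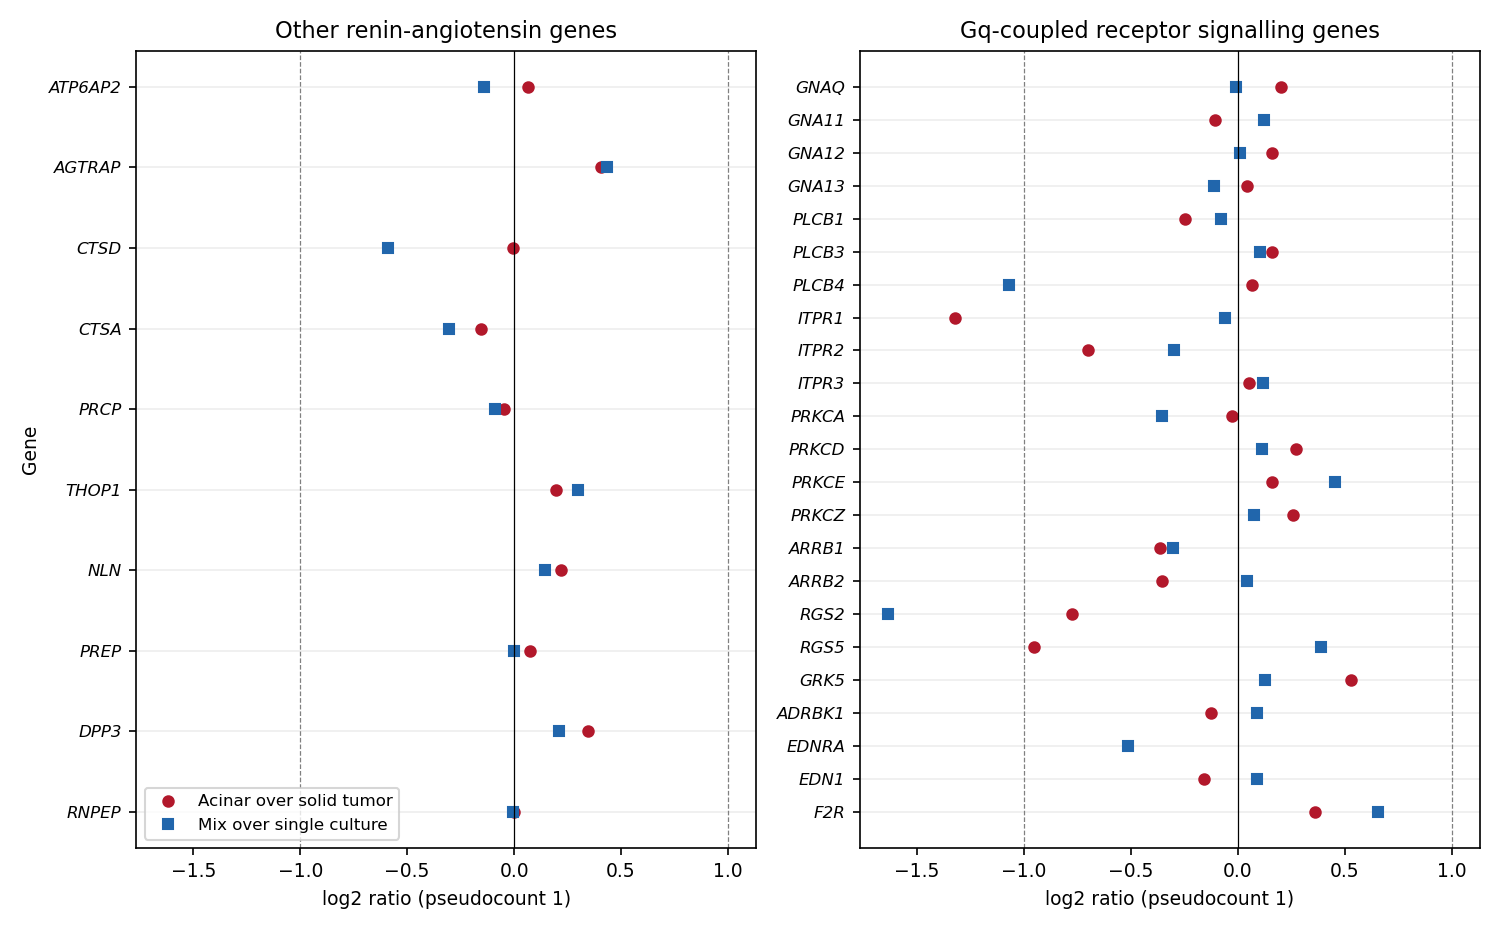
Log2 ratios with a pseudocount of 1 (horizontal) for the measured genes of the renin-angiotensin list and of the Gq receptor signalling list, acinar over solid tumor as circles and mix over single culture as squares, with dashed lines at 2-fold. No renin-angiotensin gene passes 2-fold, while RGS2 (-0.78 and -1.64), ITPR1 (-1.32 and -0.06) and PLCB4 (0.07 and -1.07) stand out to the left of the second panel.

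Of 26 genes for Gq-coupled receptor signalling, 22 were measured in the tumors and 23 in the cultures. In the acinar over solid pair 11 were above 0 and 11 below, with a median of 0.0070 and 1 past 2-fold lower. In the mix over single pair 13 were above and 10 below, with a median of 0.042 and 2 past 2-fold lower. None was past 2-fold higher in either pair. Among all genes, 2.55% were past 2-fold lower in the tumors and 1.74% in the cultures. RGS2, which switches off Gq after receptor activation, had a scaled count of 14.1 in the acinar tumor, against 24.9 in the solid tumor (1.76-fold lower, 1.36 to 2.30). It was at 91.8 in the mix culture, against 287 in the single culture (3.13-fold lower, 2.92 to 3.35). RGS2 was thus lower in both pairs, as was ARRB1 of the same list, and RGS2 passed 2-fold in the cultures only. A link of RGS2 to AGTR1 was not tested.

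ITPR1, a calcium channel opened by the Gq pathway, was at 5.27 in the acinar tumor, against 14.7 in the solid tumor (2.79-fold lower, 1.88 to 4.23), and did not differ beyond counting error between the mix culture, at 49.4, and the single culture, at 51.6. PLCB4, a phospholipase that Gq activates, was the reverse. It was at 53.5 in the acinar tumor and 51.0 in the solid tumor, and at 16.3 in the mix culture, against 35.2 in the single culture (2.16-fold lower, 1.82 to 2.58). The arrestin gene ARRB1 was 1.29-fold lower in the acinar tumor (1.16 to 1.43) and 1.24-fold lower in the mix culture (1.13 to 1.35). PRKCA, ITPR3 and the receptor kinase gene ADRBK1 had log2 ratios between -0.35 and 0.12.

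Among 14 related zinc peptidases, 10 were measured in the tumors and 9 in the cultures, with 0 past 2-fold in either pair and medians of -0.12 and -0.24. NPEPPS, a cytosolic aminopeptidase, was at 249 in the acinar tumor and 230 in the solid tumor, and at 193 in the mix and 230 in the single culture. ECE1, the relative of neprilysin that makes endothelin, was at 214 in the acinar tumor, against 149 in the solid tumor (1.44-fold higher, 1.32 to 1.56). RNPEPL1 was at 219 and 209 in the acinar and solid tumors. LTA4H, an aminopeptidase that also makes a leukotriene, was at 107 in the acinar tumor and 122 in the solid tumor, and at 139 in the mix culture and 113 in the single culture.

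Of 12 genes for kinins, the other main substrates of ACE, and for further surface peptidases, 8 were measured in each pair. In the tumors 0 were past 2-fold (median -0.29), and in the cultures 1 was lower (median -0.11), where 1.74% of all genes were. That gene was DPP4, a serine peptidase found on gut, kidney and liver epithelium, at 1.21 scaled counts in the mix culture, against 6.31 in the single culture (5.22-fold lower, 2.96 to 9.82). In the tumors DPP4 was at 1.24 in the acinar and 2.38 in the solid, within counting error. The kinin receptor gene BDKRB2 was at 83.7 in the acinar tumor, against 103 in the solid tumor (1.23-fold lower, 1.103 to 1.382), and at 117 in the mix and 109 in the single culture. CPD was 1.23-fold lower in the acinar tumor and 1.38-fold lower in the mix culture, XPNPEP1 1.13-fold lower in each, and DPP9 was at 147 in the mix and 112 in the single culture.

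Likeness of profile was measured as the distance between log2(scaled count + 1) profiles over the 4 libraries, each centred on its own mean, among 11944 other genes. Among the genes most like AGTR1 were TF (transferrin, distance 0.65), the Wnt ligand gene WNT6 (0.67), the integrin gene ITGA10 (0.73) and PPFIA4 (0.86). TF had a scaled count of 2.64 in the acinar tumor, 20.3 in the solid tumor, 7.41 in the mix culture and 31.6 in the single culture, which is the same order of libraries as AGTR1. Nearest to AGT were the pseudogene ZDHHC8P1 (0.20), SAMD5 (0.22) and the collagen gene COL27A1 (0.30). Nearest to ANPEP were WDR17 (0.21), MARS2 (0.22) and S100A9 (0.24), and nearest to LNPEP were TBX3, HIP1 and GPR162 (0.11, 0.11 and 0.12).

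Markers of other cells that express some of these genes were read beside them. ANPEP is also a surface protein of fibroblasts and myeloid cells. The 10 fibroblast markers summed to 33.7 scaled counts in the mix culture and 23.1 in the single culture, most of it COL1A1 (29.5 and 19.3). In the mix culture DCN, FAP and POSTN had 0 fragments, COL1A2 and PDGFRB had 2 each and THY1 had 25, against 15 in the single culture. PDGFRA went the other way, with 14 fragments in the mix culture and 22 in the single culture. In the single culture 5 of the 10 had 0 fragments. The part of these cells in the higher ANPEP of the mix culture was not tested.

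In the tumors the fibroblast markers summed to 88.8 scaled counts in the acinar and 54.1 in the solid, with LUM at 55.4 in the acinar and 19.6 in the solid. Of the 4 measured fibroblast markers, LUM and FAP were higher in the acinar tumor, and COL1A1 (30.7 in the acinar and 32.3 in the solid) and COL3A1 (0.310 and 1.12) were not. The 9 leukocyte markers summed to 149 in the acinar tumor and 240 in the solid tumor, and to 44.4 in the mix culture and 49.9 in the single culture. CD68 (113 in the acinar and 175 in the solid tumor) and LYZ (23.9 and 49.4) made most of the tumor sums, and both were lower in the acinar tumor. CD14 was also lower there (2.64, against 9.65 in the solid tumor), but it was higher in the sorted cultures, at 13.4 in the mix and 15.4 in the single culture. The other 3 leukocyte markers measured in the tumors were not lower in the acinar tumor. CD79A was at 2.95 in the acinar and 0.699 in the solid tumor (4.21-fold higher, 1.52 to 14.4), and ITGAM at 4.03 in the acinar and 3.22 in the solid tumor. The defining marker PTPRC had 8 fragments in the mix culture, 9 in the single culture and 9 in each tumor, where MS4A1 had 0. Host cells there are mouse cells read against a human build, and their part in the result was not tested. The 6 pericyte and smooth muscle markers summed to 11.2 in the acinar tumor, 13.4 in the solid tumor, 30.9 in the mix culture and 34.1 in the single culture, and the 7 endothelial markers to between 1.29 and 2.38 in the 4 libraries.

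Upstream sequences are shown for AGT and ACE, the members other than AGTR1 that were furthest below the single culture in the mix culture. LNPEP was also lower there (1.19-fold, 1.03 to 1.37), and its windows are not printed. The sequences shown are RefSeq windows (GRCh38.p14) of 250 bases before an annotated start, at chr1:230714123-230714372 on the minus strand for AGT and chr17:63476811-63477060 on the plus strand for ACE. Windows were found for 6 of the 7 genes, all but AGTR1. The motifs searched, on both strands, were the TATA box (TATAAA), the core of the CCAAT box (CCAAT) and the AP-1 motif (TGANTCA), and matches are in capitals. The motifs do not overlap one another in these windows.
AGT upstream: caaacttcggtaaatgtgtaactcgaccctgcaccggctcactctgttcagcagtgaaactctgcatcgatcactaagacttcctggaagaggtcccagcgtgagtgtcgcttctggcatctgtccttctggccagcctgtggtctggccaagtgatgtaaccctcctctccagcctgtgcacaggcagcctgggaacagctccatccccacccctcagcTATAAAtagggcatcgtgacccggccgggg
ACE upstream: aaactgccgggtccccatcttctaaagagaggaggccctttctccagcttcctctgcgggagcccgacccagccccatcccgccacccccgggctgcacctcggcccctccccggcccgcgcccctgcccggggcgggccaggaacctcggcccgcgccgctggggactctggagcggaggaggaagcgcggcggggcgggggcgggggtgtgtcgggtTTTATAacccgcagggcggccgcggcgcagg
TATAAA starts at position -30 in the AGT window, counted from the annotated start, and lies on the reverse strand at -31 in the ACE window printed here. The other of the 2 ACE windows holds no TATA letters and has the CCAAT letters at -23, and one MME window has the CCAAT letters at -62. The TATA letters also occur in the ENPEP window and in one of the LNPEP windows. The TATA letters occur in 10.8% of 34943 windows of the same length, the CCAAT letters in 32.0% and the AP-1 letters in 6.59%. Neither ANPEP window holds any of the 3 motifs. These are matches of letters only.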

How the data were processed

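Per the labels' protocols, the 4 A549 libraries were prepared with the TruSeq RNA kit. Cuffdiff 2.2.1, SAMtools 1.0, Bowtie2 2.2.3, TopHat2 2.0.13 and build hg19 are listed in the submitters' processing notes, without roles. The annotation, the strand setting and any filters are not stated there. The authors deposited a normalised signal per gene, which behaves as fragment counts divided by a size factor: between 90.0% and 91.2% of values above 0 were whole multiples of one step per library (tolerance 0.05). The step was 1.39 in the acinar tumor, 1.25 in the solid tumor, 0.720 in the mix culture and 0.795 in the single culture. Values were divided by 8.94 in all libraries; fragments were values divided by the step. The code for ratios and intervals was checked on simulated counts, which tests no difference between groups; Python 3.11.15 and scipy 1.17.1 were used.

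In GENCODE 29, exons of AGT, ACE, ENPEP, LNPEP and MME overlap another annotated gene. None of those overlapping genes has a symbol in the deposited table, so how fragments from the shared bases were assigned is not known. The members, the gene lists and the rule for named genes were chosen with earlier results of these data known. Lists held 116 further entries, of which 112 matched a symbol. Named were all members, list genes past 2-fold in either pair, up to 4 more per list with the highest mean level, and the genes nearest in profile. Alternatives were other pseudocounts, filters and scalings; those for the comparison of tumors with cultures were chosen after seeing the data. Values of some list and profile genes are not reported here.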

Additional observations from a re-analysis of the deposited data

Results flagged for a closer look

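The directions of the members and of the named genes of the 4 further peptidase and signalling lists were compared between tumors and cultures. With the deposited scaling, 4 went in opposite directions, with the counting interval of each ratio on its own side of 1. The share of all genes that do so is not given here. With 1 library per group, the difference between the pairs was not tested. ANPEP was at 0.520 times the solid tumor's level in the acinar tumor and at 1.50 times the single culture's level in the mix culture. LTA4H was at 0.877 times in the acinar tumor and 1.23 times in the mix culture. ECE1 was at 1.44 times in the acinar tumor and 0.889 times in the mix culture, and NPEPPS at 1.08 times and 0.839 times. The interval of NPEPPS in the tumors was 1.007 to 1.157, with its lower end close to 1. The other scalings shift log2 ratios of that pair by -0.017 to -0.073, which takes this lower end below 1. The count of 4 therefore holds for the deposited scaling only.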

How the results depend on the processing

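No paired analysis was possible because each group is 1 library. Each of the 3 other scalings multiplies every fold of a pair by the same factor. All 36 folds of the 6 detected genes therefore stayed within a factor of 1.05, which reflects the library factors and checks no single gene. The count of these genes past 2-fold lower was 2 with a pseudocount of 0.1 in the acinar tumor, against 1, where AGT crossed the limit. In the mix culture it was 1 with a pseudocount of 5, against 2, where AGT again crossed the limit. With a pseudocount of 0.1 the count in the mix culture was 3, against 2, where ACE crossed it (log2 ratio -1.21, against -0.85). Over all genes, a pseudocount of 0.1 gave 478 higher and 692 lower in the acinar tumor and 192 higher and 522 lower in the mix culture. A pseudocount of 5 gave 114 higher and 101 lower in the acinar tumor and 33 higher and 73 lower in the mix culture, and a filter of 5 scaled counts gave 203 lower in the acinar tumor. Depth limits ACE, ENPEP, AGT and, in the tumors, LNPEP, each with at most 58 fragments in a library. It also limits AGTR1 in the acinar tumor, with 24 fragments.
The alternatives for tumors against cultures were chosen after seeing the data and left the counts of the 6 genes as they were.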

Other observations

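Between the settings, 12 of 50 measured genes of the further lists were past 2-fold the same way in both tumors, 4 higher (8.0%, against 11.9% of 13758 genes) and 8 lower (16.0%, against 10.2%). This count was made after seeing the data. AGTRAP, CPM, EDN1 and RNPEPL1 were higher in the tumors. CPM, a surface carboxypeptidase, had a scaled count of 19.7 in the acinar tumor and 24.3 in the solid tumor, against 4.99 in the mix culture and 3.73 in the single culture. EDN1, the endothelin precursor, was at 97.5 in the acinar tumor and 109 in the solid tumor, against 28.5 in the mix culture and 26.8 in the single culture.

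Its receptor gene EDNRA was among the 8 lower in the tumors, at 0.310 in the acinar tumor and 0.420 in the solid tumor, against 5.88 in the mix culture and 8.80 in the single culture. The thrombin receptor gene F2R was at 14.1 and 10.8 in the acinar and solid tumors, against 99.1 and 62.5 in the mix and single cultures. The other 6 were CPD, DPP8, GNA12, ITPR1, PRKCA and RGS2. Setting and sampling cannot be told apart here.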
